A study of Mus musculus with 10 samples.

Results

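The 10 apolipoprotein genes described here, Apoa1, Apoa2, Apoa4, Apoa5, Apob, Apoc1, Apoc3, Apoe, Apoh and Apom, were taken by name from the 22180 genes that an Affymetrix array measured in mouse cells. Each of the 10 had exactly 1 transcript cluster (the set of probes summarised to 1 value) with a single gene symbol, so no choice between clusters was needed, and the Entrez identifiers of 10 of 10 led to the same symbol in RefSeq. The series title concerns how natural killer cells recognise, through their receptor NKG2D, liver cells made from stem cells. RNA came from 3 samples of adult hepatocytes (Ad_Hep, source liver), 3 samples of hepatocyte-like cells (ES_HLC), which had been made by differentiating mouse embryonic stem cells, and 4 samples of undifferentiated embryonic stem cells (mESC). All 10 samples, the adult cells included, carry the transgene Tg(CAG-luc, GFP)L2G85Chco in a strain labelled C.FVB with the ending FathJ; it places luciferase and green fluorescent protein under the broadly active CAG promoter, and all 10 carry the same entry on passage number. The labels call the samples biological replicates but do not say whether they came from separate animals or cultures, nor give ages or the differentiation protocol, so a p-value reflects how these samples scatter, which may be technical. Values are log2 array levels, on which 1 unit is 2-fold, and a level of 1 gene cannot be set against that of another because their probes differ.

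Apolipoproteins are the protein parts of lipoproteins, the particles that carry triglycerides and cholesterol in blood. Apolipoprotein B is the structural protein of the particles that the liver and intestine secrete, and apolipoprotein A-I is the main protein of high density lipoprotein; the smaller apolipoproteins move between particles and act as ligands of receptors or as activators or inhibitors of lipases. The liver is the main source of most of them in adult mice, while the visceral endoderm of the yolk sac supplies the early embryo. Apoa1, Apoa4, Apoa5 and Apoc3 lie side by side on mouse chromosome 9, and Apoe and Apoc1 on chromosome 7.

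Promoter sequences were looked at because several of these genes are textbook targets of HNF4A, a nuclear receptor of hepatocytes that binds pairs of AGGTCA-like repeats with 1 base between them. RefSeq promoter windows of GRCm38.p6, from 250 bases before a transcript start to 50 after it, were available for 8 of the 10 genes. None was available for Apoc1 and Apoc3. The 4 shown are those of the 2 genes that rose in hepatocyte-like cells, Apob and Apoa1, and of Apoa4 and Apoa5, which lie beside Apoa1. Capitals mark matches, on either strand, to the searched motifs CAAAGTNCA, CAAAGGTC, GGTCAAAG, the palindromic HNF1 site and TATAAA (the TATA box); CAAAGGTC and GGTCAAAG are overlapping pieces of the same HNF4A-type site.
Apob (chr12:7977427-7977726, plus strand): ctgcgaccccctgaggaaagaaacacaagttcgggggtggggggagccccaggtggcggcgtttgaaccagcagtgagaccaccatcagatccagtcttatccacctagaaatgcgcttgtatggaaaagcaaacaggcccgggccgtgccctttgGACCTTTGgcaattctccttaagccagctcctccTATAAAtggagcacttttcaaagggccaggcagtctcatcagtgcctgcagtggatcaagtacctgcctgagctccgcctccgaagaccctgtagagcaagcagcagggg
Apoa1 (chr9:46228380-46228679, plus strand): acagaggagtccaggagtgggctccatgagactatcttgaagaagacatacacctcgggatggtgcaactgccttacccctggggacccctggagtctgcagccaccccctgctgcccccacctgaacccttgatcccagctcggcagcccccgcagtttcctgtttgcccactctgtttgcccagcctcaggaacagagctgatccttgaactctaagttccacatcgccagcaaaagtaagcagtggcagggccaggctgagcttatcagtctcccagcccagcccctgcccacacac
Apoa4 (chr9:46240594-46240893, plus strand): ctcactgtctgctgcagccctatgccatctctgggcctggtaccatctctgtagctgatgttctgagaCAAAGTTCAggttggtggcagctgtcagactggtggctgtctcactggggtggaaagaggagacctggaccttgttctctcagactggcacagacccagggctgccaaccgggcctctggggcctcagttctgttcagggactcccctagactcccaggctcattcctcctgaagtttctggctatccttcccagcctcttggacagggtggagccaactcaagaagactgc
Apoa5 (chr9:46268358-46268657, plus strand): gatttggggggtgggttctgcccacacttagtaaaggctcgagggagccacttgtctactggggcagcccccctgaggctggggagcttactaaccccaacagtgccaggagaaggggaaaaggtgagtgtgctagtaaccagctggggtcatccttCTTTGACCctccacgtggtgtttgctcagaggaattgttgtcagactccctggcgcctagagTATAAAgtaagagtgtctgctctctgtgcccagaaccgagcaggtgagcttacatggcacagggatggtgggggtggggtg
The Apob window held CAAAGGTC, read on the opposite strand as GACCTTTG, 94 bases before the start, and a TATAAA 60 bases before it. In the Apoa4 window CAAAGTTCA, a match to CAAAGTNCA, began 182 bases before the start. Apoa5 held GGTCAAAG, read as CTTTGACC, 93 bases before the start of the window shown and TATAAA 31 bases before it. The Apoa1 window had 0 matches to the 5 motifs. Among the genes not shown, Apoe, which fell in hepatocyte-like cells, also held CAAAGGTC and, in another window, TATAAA. The windows of Apoa2, Apoh and Apom held no HNF4A-type match. Among all 32851 promoter windows of the same length, CAAAGTNCA was found in 1.41%, CAAAGGTC in 1.17%, GGTCAAAG in 0.96%, the HNF1 palindrome in 0.01% and TATAAA in 13.62%. These are matches of letters and say nothing about binding in these cells.

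Before the apolipoproteins are described, 1 array needs a remark. Among the hepatocyte-like arrays, replicate 3 was unlike the other two: Alb, the gene of serum albumin, read 4.85, 5.14 and 10.80 in replicates 1, 2 and 3, the fetal liver and yolk sac protein gene Afp read 9.13, 9.30 and 6.69, and the pluripotency factor Nanog read 5.08, 5.09 and 7.12. The mean over 17 mature hepatocyte markers was 4.36, 4.52 and 5.68 in these arrays, against 4.47 to 4.50 in stem cells and 11.31 to 11.52 in adult hepatocytes. Set against stem cells, 0 of the 17 rose and 0 fell in hepatocyte-like cells, so the label hepatocyte-like was not borne out by this list; 2 rose without replicate 1. Of 21 markers of visceral endoderm 11 rose and 0 fell, where 8.61% of all genes rose and 7.35% fell. In adult hepatocytes 12 of the same 21 rose against stem cells and 0 fell, where 11.0% and 15.6% of all genes did. This count therefore does not set hepatocyte-like cells apart from adult hepatocytes. Values of hepatocyte-like cells are therefore given per array, and results that rest on replicate 3 are also given without it. In bulk RNA, fewer cells of a type and less RNA per cell cannot be told apart. Olfactory receptor genes, which these cells should lack, served as a guide to background: the 95th percentile of their 1088 levels lay between 4.84 and 5.21 on the arrays. Where some or all arrays of the lower group were not above it, a fold is also or only given as at least N-fold, with those arrays raised to their own percentile, and other differences against such a group are differences from background.

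All 10 apolipoprotein genes were high in adult hepatocytes. In the comparison with stem cells 10 of 10 were called higher. A call means a Benjamini-Hochberg adjusted p under 0.05 and a difference of at least 1 on the log2 scale in limma's test. The 10 were chosen with earlier results of these data known, so their count does not stand for apolipoproteins at large. Of 18 other measured apolipoprotein genes 9 were called higher and 1 lower. Of all genes tested, 26.6% were called in this comparison, 11.0% in the upward direction. The median difference of the 10 was 6.12, against 0.05 over all genes. In no case did an adult array overlap an array of the other kinds, which holds for 46.9% of all genes for adult against stem cell arrays and for 45.1% for adult against hepatocyte-like arrays. The distance from the lowest adult array to the highest other array ran from 0.95 for Apoe to 6.33 for Apoh.

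**Figure D1:**
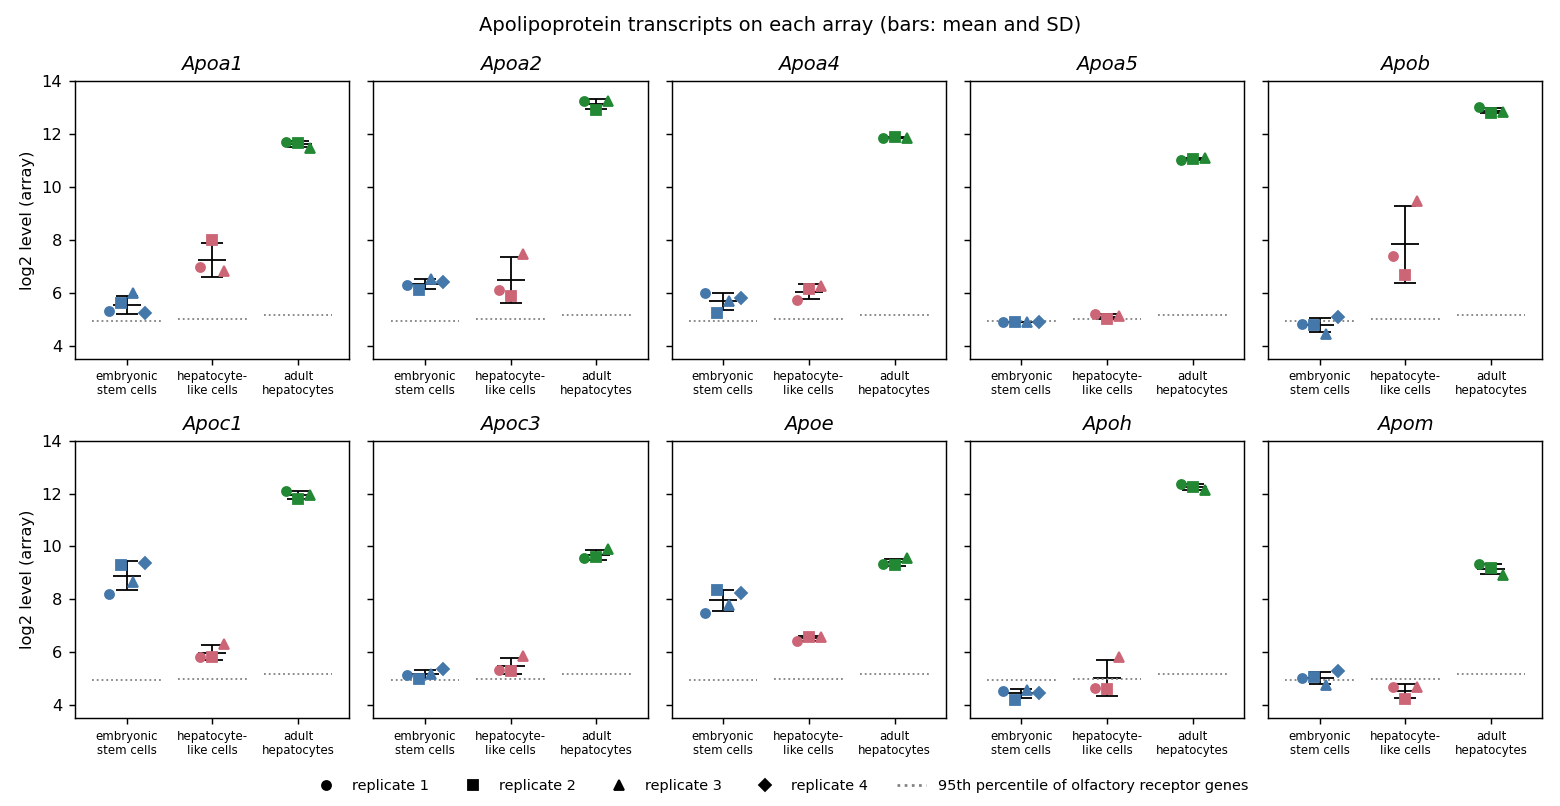
Log2 level of each apolipoprotein gene (vertical axes) on each of the 10 arrays, grouped on the horizontal axes as embryonic stem cells (4 arrays), hepatocyte-like cells (3) and adult hepatocytes (3); horizontal bars give the mean and 1 SD either way, marker shapes the replicate number, and dotted lines the group's mean 95th percentile of olfactory receptor genes. Adult arrays lie on top in all 10 panels, Apob and Apoa1 are raised in hepatocyte-like cells, and Apoc1 and Apoe are lower there than in stem cells.

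Apob showed the largest rise of the 10 in hepatocyte-like against stem cells. It encodes the large protein that stays with a particle from its assembly to its uptake. The adult arrays read 13.01, 12.81 and 12.83, the hepatocyte-like arrays 7.39, 6.65 and 9.45, and the stem cell arrays 4.80, 4.79, 4.43 and 5.09. Each hepatocyte-like array was above each stem cell array and below each adult array, and replicate 3 was the highest of the 3 by a wide margin. In hepatocyte-like cells Apob rose by 3.05 ± 0.48 (SE of the fit), or 8.30-fold, over stem cells (n = 3 and 4, adjusted p = 0.00034 by limma). Without replicate 3 the rise was 2.24 (adjusted p = 2.7e-05). Against adult hepatocytes the gene fell by 5.05 ± 0.51 (adjusted p = 4.55e-06), a level 33.2-fold lower. Only 1 of the 4 stem cell arrays exceeded the olfactory percentile, so both folds over stem cells are given as bounds as well: at least 7.19-fold in hepatocyte-like cells and at least 239-fold in adult hepatocytes (measured difference 8.11 ± 0.48).

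Among the genes of high density lipoprotein, Apoa1 rose in hepatocyte-like cells and Apoa2 and Apom did not. Apoa1, whose protein activates cholesterol esterification in plasma, read 11.68, 11.66 and 11.48 on adult arrays, 6.95, 7.97 and 6.80 on hepatocyte-like arrays, and 5.31, 5.61, 6.0 and 5.23 on stem cell arrays. The 3 kinds of cell did not overlap, and here replicate 2, not replicate 3, was the highest hepatocyte-like array. The rise over stem cells was 1.71 ± 0.27, or 3.26-fold (adjusted p = 0.000383), and 1.93 without replicate 3; the level stayed 20.6-fold below that of adult hepatocytes.

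Apoa2, the second protein of high density lipoprotein, read 13.23, 12.92 and 13.25 on adult arrays, 6.10, 5.88 and 7.46 on hepatocyte-like arrays, and 6.27, 6.11, 6.51 and 6.41 on stem cell arrays. Hepatocyte-like replicate 3 was above each stem cell array, while replicates 1 and 2 lay below each of them. The difference was 0.15 ± 0.31 (95% interval -0.51 to 0.81, adjusted p = 0.792), and it turned to -0.34 without replicate 3 and to -0.05 with array weights (adjusted p = 0.206 and 0.925). Apom, the carrier of sphingosine-1-phosphate on high density lipoprotein, read 9.33, 9.18 and 8.93 on adult arrays, 4.69, 4.22 and 4.68 on hepatocyte-like arrays, and 5.03, 5.05, 4.74 and 5.27 on stem cell arrays. All 3 hepatocyte-like values of Apom were below the 4 of stem cells and below the olfactory percentile of their array, by a difference of -0.49 ± 0.18 that missed the threshold (95% interval -0.89 to -0.10, adjusted p = 0.0627).

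Apoa5, Apoc3 and Apoa4, the 3 genes that lie beside Apoa1, were not called in hepatocyte-like against stem cells. Apoa5, whose protein helps lipoprotein lipase, read 11.01, 11.07 and 11.10 on adult arrays, 5.19, 4.99 and 5.10 on hepatocyte-like arrays and 4.91, 4.89, 4.90 and 4.88 on stem cell arrays. The 3 hepatocyte-like values were above the 4 of stem cells, but all 7 lay near the background of olfactory receptor genes, and the difference was 0.20 ± 0.13 (95% interval -0.09 to 0.49, adjusted p = 0.327). Apoc3, whose protein inhibits that lipase, read 9.54, 9.59 and 9.90 on adult arrays, 5.31, 5.28 and 5.84 on hepatocyte-like arrays and 5.15, 4.99, 5.19 and 5.36 on stem cell arrays. Its hepatocyte-like and stem cell arrays overlapped, with replicate 3 the highest, and differed by 0.31 ± 0.18 (95% interval -0.09 to 0.70, adjusted p = 0.26). Apoa4, a protein of intestinal and hepatic particles, read 11.84, 11.87 and 11.84 on adult arrays, 5.73, 6.12 and 6.27 on hepatocyte-like arrays and 6.0, 5.22, 5.68 and 5.80 on stem cell arrays. These groups overlapped too (0.37 ± 0.20, 95% interval -0.06 to 0.80, adjusted p = 0.209).

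In adult hepatocytes these 3 genes were far above stem cells, Apoa4 by 6.18 ± 0.20, Apoa5 by 6.16 ± 0.13 and Apoc3 by 4.51 ± 0.18 (adjusted p = 5.59e-11, 6.08e-12 and 4.58e-10). Apoa4 showed the narrowest spread of the 10 among adult arrays, with a range of 0.04.

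Apoc1 and Apoe took an order that none of the other 8 genes showed in called differences: adult hepatocytes highest, stem cells next and hepatocyte-like cells lowest. Apoc1, whose protein slows particle uptake, read 12.09, 11.79 and 11.94 on adult arrays, 8.21, 9.31, 8.67 and 9.35 on stem cell arrays and 5.81, 5.83 and 6.30 on hepatocyte-like arrays. The 3 kinds of cell were separate, with no array of 1 kind within the range of another. Apoc1 fell by 2.90 ± 0.26 in hepatocyte-like against stem cells, to a level 7.49-fold lower (adjusted p = 4.1e-06), and it was 8.30-fold higher in adult hepatocytes than in stem cells (3.05 ± 0.26, adjusted p = 7.47e-07). Apoe, a ligand of the low density lipoprotein receptor family that many cell types outside the liver also make, read 9.34, 9.29 and 9.56 on adult arrays, 7.47, 8.34, 7.77 and 8.25 on stem cell arrays and 6.41, 6.59 and 6.58 on hepatocyte-like arrays. Its fall against stem cells was 1.43 ± 0.21, or 2.70-fold (adjusted p = 0.000195), and its adult excess over stem cells, 2.71-fold, was the smallest of the 10 (1.44 ± 0.21, adjusted p = 7.84e-05). Without replicate 3 the falls were 3.06 for Apoc1 and 1.46 for Apoe.

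Macrophages are a known source of Apoe and Apoc1, so their markers are given beside them. Of 16 Kupffer cell and macrophage markers 14 exceeded the olfactory percentile on every adult array, against 3 in hepatocyte-like cells and 2 in stem cells. The mean over the 16 was 6.11 to 6.32 in adult hepatocytes, 4.62 to 4.72 in hepatocyte-like cells and 4.62 to 4.76 in stem cells. Against stem cells 12 were higher and 1, Cd68, lower in adult hepatocytes, among them Vsig4 by 3.66, Cd5l by 3.48 and Mrc1 by 3.31; the part of such cells in the adult levels of Apoe and Apoc1 was not tested. In hepatocyte-like against stem cells 1 macrophage marker was higher and 1 lower: Csf1r by 1.01 ± 0.30, not called without replicate 3 (0.77, adjusted p = 0.0976), without replicate 2 (1.02, adjusted p = 0.0554) or without stem cell replicate 2 (0.77, adjusted p = 0.0529), and Cd68 by -1.63 ± 0.27. Among 13 pluripotency markers 11 fell and 0 rose in hepatocyte-like cells. The shares of all genes called against stem cells were 8.61% higher and 7.35% lower in hepatocyte-like cells. In adult hepatocytes they were 11.0% and 15.6%.

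Apoh, which encodes beta-2 glycoprotein I, a phospholipid-binding plasma protein, had the widest gap between adult and other cells. Its adult arrays read 12.34, 12.25 and 12.15, its hepatocyte-like arrays 4.63, 4.61 and 5.81, and its stem cell arrays 4.54, 4.19, 4.59 and 4.47. Replicates 1 and 2 of hepatocyte-like cells were just above the highest stem cell array, and replicate 3 alone of the 7 arrays of cultured cells exceeded the olfactory percentile. The difference between hepatocyte-like and stem cells, 0.57 ± 0.26, missed the threshold (95% interval 0.01 to 1.13, adjusted p = 0.127) and was 0.17 without replicate 3. As 0 of 4 stem cell arrays exceeded that percentile, the adult level can be given only as at least 158-fold that of stem cells (measured difference 7.80 ± 0.26, adjusted p = 7.67e-11).

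The comparison of hepatocyte-like with stem cells asks which apolipoprotein genes differentiation moved, and 4 of the 10 were called, Apob and Apoa1 higher and Apoc1 and Apoe lower. Of all genes 16.0% were called, 8.61% higher and 7.35% lower. The median difference was 0.25 over the 10 and -0.01 over all genes. Hepatocyte-like and stem cell arrays did not overlap for 7 of the 10, against 34.6% of all genes. The 3 that overlapped were Apoa2, Apoa4 and Apoc3. Among the 7, Apoa5, Apoh and Apom were not called and lay near or below the olfactory percentile, apart from Apoh in hepatocyte-like replicate 3. For Apoh the highest stem cell array read 4.59 and the lowest hepatocyte-like array 4.61. Against adult hepatocytes 10 of 10 were called lower in hepatocyte-like cells, where 23.0% of all genes were called and 9.12% lower, with a median of -5.43 over the 10 and -0.04 over all genes. The smallest of these differences was that of Apoe (-2.87, 7.31-fold lower). Apoh, with 1 of 3 hepatocyte-like arrays above the olfactory percentile, was at least 121-fold lower (measured difference -7.23), and Apom, with 0 of 3, at least 17.7-fold lower (-4.62). The 3 comparisons share their arrays and are not independent of each other.

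**Figure D2:**
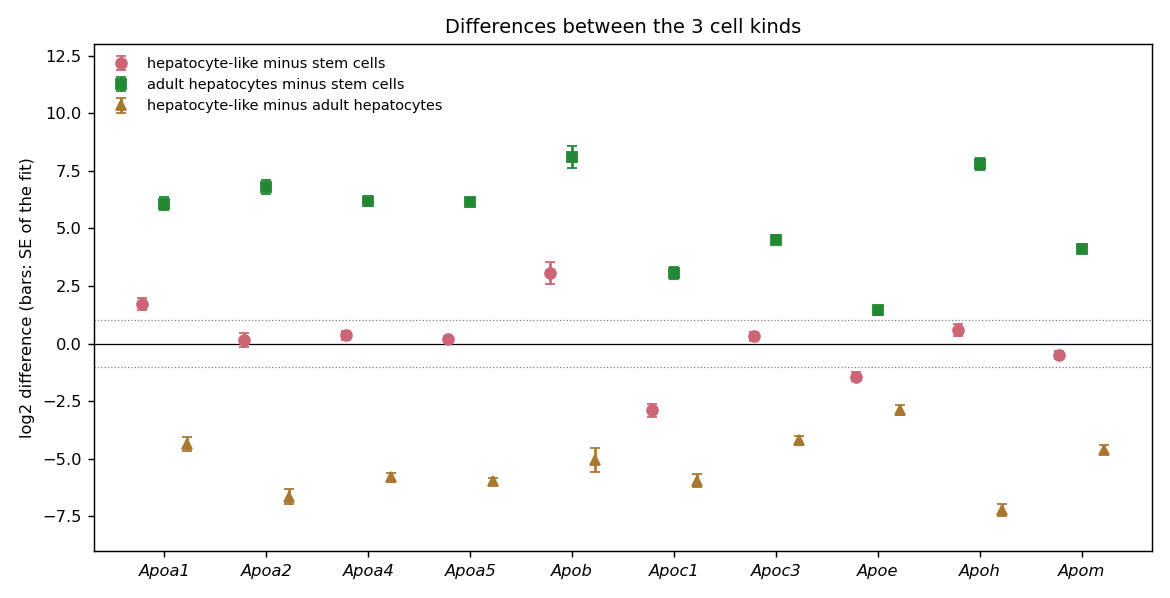
Log2 differences (vertical axis, bars 1 SE of the fit either way) of the 10 apolipoprotein genes (horizontal axis) for the 3 comparisons of cell kinds, with dotted lines at the minimum difference of 1 either way. Hepatocyte-like minus stem cell values lie beyond the lines for Apob, Apoa1, Apoc1 and Apoe, while the other 2 comparisons lie beyond them for all 10.

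The hepatocyte-like arrays differed among themselves in the apolipoproteins. Taking the stem cell mean as 0% and the adult mean as 100% on the log2 scale, Apob stood at 32.3%, 23.1% and 57.6% in replicates 1, 2 and 3 and Apoa1 at 23.4%, 40.1% and 20.8%. Apoh stood at 2.4%, 2.1% and 17.5%, Apoa2 at -3.4%, -6.6% and 16.7%, and Apoc3 at 3.1%, 2.3% and 14.9%. Replicate 3 was above the mean of replicates 1 and 2 for 9 of the 10, all but Apoa1, while this held for 48.3% of all genes. For Apoa5 and Apoe it was above by only 0.01 and 0.08. The excess of replicate 3 was at least 1 for 3 of the 10, Apob (2.43), Apoa2 (1.47) and Apoh (1.19), against 2.47% of all genes. The median excess was 0.41 over the 10 and -0.02 over all genes. In the same array Alb was raised and Afp lowered, as given above; their part in the apolipoprotein values was not tested. The calls for the 10 genes without it were the same 4 in hepatocyte-like against stem cells.

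**Figure D3:**
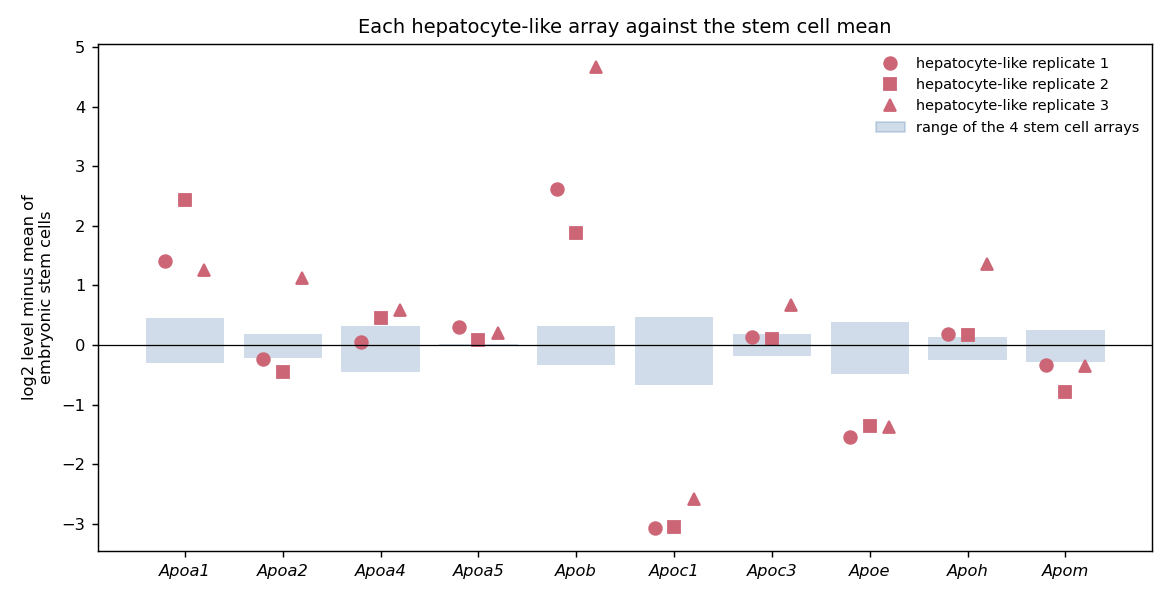
Log2 level of each hepatocyte-like array minus the mean of the stem cell arrays (vertical axis) for the 10 apolipoprotein genes (horizontal axis); marker shapes give replicates 1, 2 and 3 and shaded boxes the range of the 4 stem cell arrays. Replicate 3 is highest for Apob, Apoa2, Apoh, Apoa4, Apoc3 and Apoc1, replicate 2 for Apoa1 and Apoe, and replicate 1 for Apoa5 and Apom. All 3 lie below the stem cell range for Apoc1, Apoe and Apom.

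Visceral endoderm makes Apob and Apoa1 in the embryo, and its markers moved beside these 2 genes. The mean over 21 visceral endoderm markers was 7.20, 7.35 and 7.06 in hepatocyte-like replicates 1, 2 and 3. It was 5.23 to 5.39 in stem cells and 7.61 to 7.69 in adult hepatocytes. In adult hepatocytes 12 of the 21, among them Ttr and Fgb, were also called higher than in stem cells. Called higher in hepatocyte-like against stem cells were 11 of the 21, including Spink1 (4.97 ± 0.31), the transcription factor Gata6 (4.22 ± 0.35), Afp (3.75 ± 0.48) and the metal transporter gene Slc39a8 (3.52 ± 0.20). Ttr and Fgb, which the rule for named genes takes from this list, were looked at by array: Ttr, the gene of the thyroxine carrier transthyretin, read 9.04, 10.44 and 8.77 in the hepatocyte-like arrays, and the fibrinogen chain gene Fgb read 6.67, 7.99 and 6.85. Replicate 2 was the highest of the 3 for Ttr and Fgb, as it was for Apoa1, but the 11 called markers did not agree: 7 were highest in replicate 2, 2 in replicate 1 (Gata6 and Rbp4) and 2 in replicate 3 (Spink1 and Cubn), where Apob and Alb were also highest. Their part in the rises of Apob and Apoa1 was not tested. Enterocytes, the other adult source of Apob and Apoa4, were followed by 12 markers, of which 1 rose (Krt20, 2.67) and 2 fell (Slc15a1, -4.0, and Cdx1, -2.66) in hepatocyte-like against stem cells; without replicate 3, 2 rose. In adult hepatocytes 1 of the 12 was higher than in stem cells, Fabp2 by 4.37, and 2 were lower. Over all genes 8.61% rose and 7.35% fell in hepatocyte-like cells, and 11.0% and 15.6% in adult hepatocytes. Of 14 stellate cell and fibroblast markers 9 rose and 0 fell in hepatocyte-like against stem cells, with a list mean of 8.82, 8.03 and 7.15 in replicates 1, 2 and 3.

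In hepatocyte-like cells 1 of the 4 genes of the chromosome 9 cluster was called against stem cells, and 2 of 2 on chromosome 7. On chromosome 9 the order is Apoa1, Apoc3, Apoa4, Apoa5, and the gene called was Apoa1, whereas 4 of 4 were called in adult hepatocytes. Of the 8 nearest measured neighbours, 4 on either side, Tagln, a smooth muscle gene, rose by 4.18 and Sidt2 by 1.31, and Bud13 fell by 1.22. On chromosome 7 the order of the measured genes is Apoc2, Apoc1, Apoe, Tomm40, and each of them was called lower in hepatocyte-like against stem cells. Apoc2, whose protein activates lipoprotein lipase, read 5.48, 6.42 and 5.86 on hepatocyte-like arrays, 7.73, 7.54, 7.60 and 7.59 on stem cell arrays and 9.90, 9.58 and 9.77 on adult arrays. It thus had the same order of the 3 kinds of cell as Apoc1 and Apoe and fell by 1.70 ± 0.20 against stem cells (adjusted p = 4.15e-05). Of the 8 measured neighbours at this locus 3 were called lower in hepatocyte-like cells, Apoc2, Relb by 1.23 and Tomm40 by 1.15, and 0 higher. Relb, a subunit of NF-kappaB, and Tomm40, a pore of the mitochondrial import machinery, were lower in adult hepatocytes than in stem cells as well, each by 1.87, whereas Apoc2 was higher there by 2.13. Over the 6 loci that hold the 10 genes, 5 of 48 neighbours were called higher and 6 lower in hepatocyte-like against stem cells. The shares over all genes were 8.61% and 7.35%. In adult hepatocytes against stem cells 8 of the 48 were higher and 12 lower, with 11.0% and 15.6% over all genes.

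**Figure D4:**
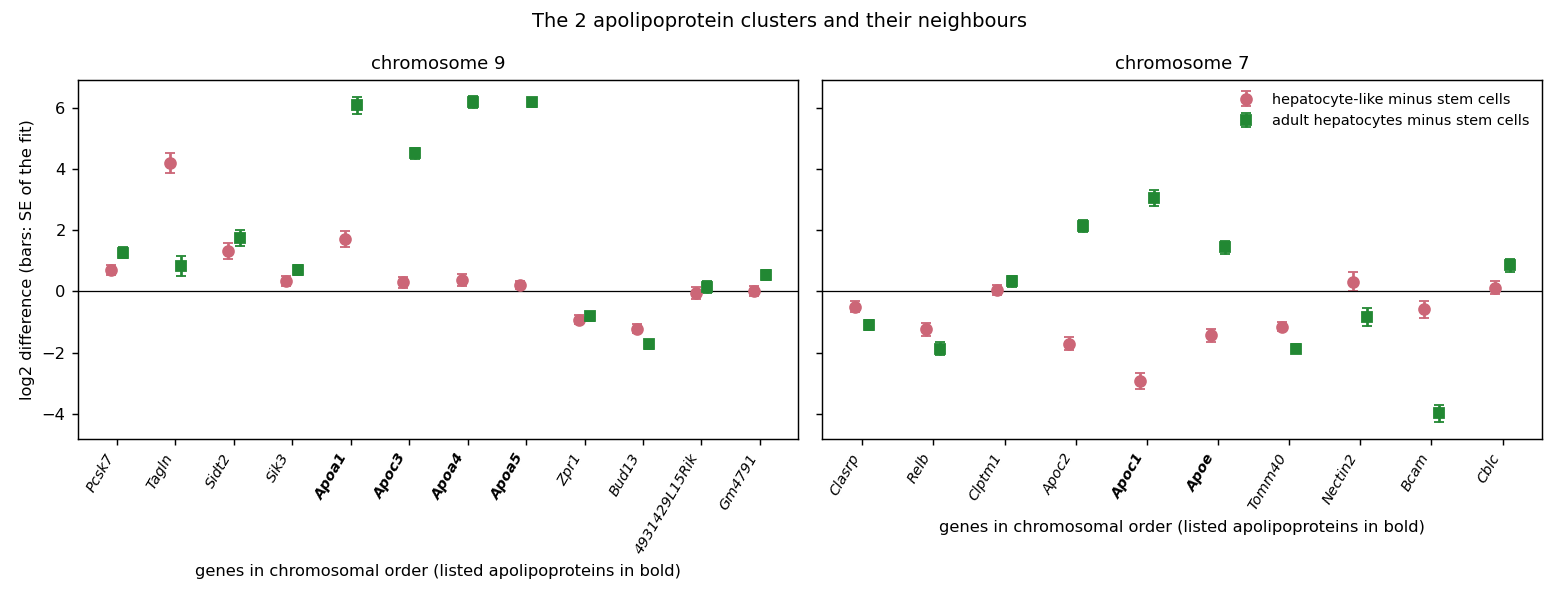
Log2 differences from stem cells (vertical axes, bars 1 SE of the fit either way) of hepatocyte-like cells and adult hepatocytes for the measured genes around the apolipoprotein clusters of chromosomes 9 and 7, placed in chromosomal order without scale (horizontal axes; genes of the family of 10 in bold). In adult hepatocytes the bold genes lie above 0 in both clusters; in hepatocyte-like cells Apoa1 alone of its cluster is raised, and Apoc2, Apoc1 and Apoe are below 0.

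At the remaining loci, Nr1i3, the gene of the nuclear receptor CAR beside Apoa2, differed between adult hepatocytes and stem cells by 4.41 and between hepatocyte-like and stem cells by -0.04. The neighbour of Apoa2 that was called in hepatocyte-like against stem cells was Adamts4, a metalloproteinase gene, which rose by 1.16. Beside Apob, Rhob rose by 1.22 and Ubxn2a fell by 1.85 in hepatocyte-like against stem cells. Beside Apoh, Prkca rose by 1.27 and Axin2, a target gene of Wnt signalling, fell by 2.07, and beside Apom 0 of 8 neighbours were called in that comparison, whereas Bag6 (-1.09) and Prrc2a (-1.08) were lower in adult hepatocytes than in stem cells.

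Other apolipoprotein genes were raised in adult hepatocytes in part. Of 18 measured, 9 were higher and 1 lower in adult hepatocytes than in stem cells, led by Saa4 (7.81 ± 0.25), Apon (7.17 ± 0.21) and Apof (6.82 ± 0.18). In hepatocyte-like cells 1 of the 18 rose and 2 fell against stem cells. Over all genes 8.61% rose and 7.35% fell there, and 11.0% rose and 15.6% fell in adult hepatocytes. The counts of the lists that follow stand beside these same shares. The gene that rose was Clu, which encodes the chaperone clusterin, also named apolipoprotein J: it read 10.66, 11.54 and 10.19 on hepatocyte-like arrays, 6.51, 6.55, 6.42 and 6.58 on stem cell arrays and 11.31, 11.22 and 11.20 on adult arrays. Its rise of 4.28 ± 0.25 (adjusted p = 1.01e-07) exceeded that of Apob, and its hepatocyte-like arrays overlapped the adult ones (difference -0.45 ± 0.27, adjusted p = 0.227). Besides Apoc2, Apod fell by 1.43 ± 0.23.

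The machinery that loads lipid onto apolipoprotein B rose in part. Of 16 measured genes for assembly and secretion of such particles 4 rose and 0 fell in hepatocyte-like against stem cells, with a median difference of 0.75, and 9 rose in adult hepatocytes. Mttp, the microsomal transfer protein without which apolipoprotein B is degraded, read 6.77, 6.45 and 7.34 on hepatocyte-like arrays, 5.14, 5.10, 5.06 and 5.01 on stem cell arrays and 10.81, 11.0 and 10.90 on adult arrays. It was highest in replicate 3 of the hepatocyte-like arrays, as was Dgat2, while Surf4 and Mia3 were highest in replicate 1. Mttp rose by 1.78 ± 0.19 (adjusted p = 1.86e-05). Dgat2, an enzyme of triglyceride synthesis, rose by 2.12 ± 0.31, Surf4, a cargo receptor for lipoprotein export from the endoplasmic reticulum, by 1.20 ± 0.16, and Mia3, which helps to load bulky cargo, by 1.16 ± 0.17. Against adult hepatocytes 6 of the 16 were lower in hepatocyte-like cells, or 10 after cyclic loess normalization, and 0 higher. The list's largest adult differences from stem cells were those of Mia2 (6.28), Dgat2 (6.10), Mttp (5.83) and Tm6sf2 (4.50).

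Editing of the Apob message, which in mouse liver yields the short form of the protein, needs the deaminase Apobec1 and a cofactor, A1cf or Rbm47. A1cf read 10.33, 10.21 and 10.45 on adult arrays, 3.39, 3.42 and 3.77 on hepatocyte-like arrays and 3.13, 3.38, 3.01 and 3.01 on stem cell arrays. The 7 arrays of cultured cells were all below the olfactory percentile for A1cf, and the adult level was at least 40.2-fold that of hepatocyte-like cells (measured difference 6.80 ± 0.17). Rbm47 was higher in adult hepatocytes than in stem cells by 1.77 ± 0.30, and between hepatocyte-like and stem cells it differed by -0.07 ± 0.30. Of the 6 measured editing genes 2, A1cf and Rbm47, were called higher in adult hepatocytes than in stem cells, and 2 lower. The 2 lower were Khsrp (-1.75 ± 0.18) and Syncrip (-1.38 ± 0.28), the latter not called after cyclic loess. Apobec1 read 8.21, 6.90 and 7.42 on adult arrays and 6.25, 6.65 and 6.41 on hepatocyte-like arrays; it was lower in the latter by 1.07 ± 0.27, a call lost without adult replicate 1 (-0.72) and without hepatocyte-like replicate 1 (-0.98). Of the 6 measured editing genes 1, Celf2, was called higher in hepatocyte-like against stem cells (1.09 ± 0.21), with 0.58 when its clusters were averaged and 0.93 without hepatocyte-like replicate 2, both short of the minimum difference.

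Receptors that take up apolipoproteins, with their adaptors, rose in part as well. Of 15 measured receptor genes 7 rose and 1, Sorl1, fell against stem cells, and 6 rose and 2 fell in adult hepatocytes. The endocytic adaptor gene Dab2 rose by 3.3 ± 0.20, Cubn, the gene of a receptor for apolipoprotein A-I, by 2.29 ± 0.29, the sorting receptor gene Sort1 by 2.04 ± 0.26, and the remnant receptor gene Lrp1 by 2.0 ± 0.25. Dab2, Cubn and Lrp2 are also in the visceral endoderm list. Lrp2, which encodes megalin, was not called against stem cells but read 5.99, 6.41 and 9.36 on the hepatocyte-like arrays, so that replicate 3 stood apart here as for Apob. Of the other 3 that rose, Vldlr (1.11) lost its call in 11 alternatives, with 0.57 without replicate 1, Lrp8 was not called without replicate 1 (0.76), and Lsr (1.81 ± 0.30) was not when its clusters were averaged (0.88). Adult hepatocytes exceeded stem cells most in Cd36 (5.05), Lsr (3.48) and Lrp1 (2.93).

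Genes that act on lipoproteins in plasma were called in hepatocyte-like against stem cells about as often as all genes, of which 8.61% rose and 7.35% fell. Of 13 lipases, transfer proteins and inhibitors 1, Lipg, rose (2.10 ± 0.22) and 1, Angptl4, fell (-1.60 ± 0.18) in hepatocyte-like against stem cells, while 9 rose and 1 fell in adult hepatocytes. Lcat, the enzyme that apolipoprotein A-I activates, read 11.79, 11.79 and 11.77 on adult arrays against 5.75, 5.94 and 5.90 on hepatocyte-like arrays and 4.95 to 5.40 on stem cell arrays; its difference between the latter kinds, 0.71 ± 0.15, was below the minimum for a call. The paraoxonase gene Pon1, whose protein travels on high density lipoprotein, was 8.37 ± 0.33 higher in adult hepatocytes than in stem cells and 0.23 ± 0.33 higher in hepatocyte-like cells. Of 11 exporters of cholesterol and phospholipid 3 rose in hepatocyte-like against stem cells, among them Atp8b1 (2.27 ± 0.35), and 7 in adult hepatocytes, led by the bile salt pump gene Abcb11 (7.71 ± 0.20). Of the other 2, Abcg1 (1.16 ± 0.39, adjusted p = 0.0427 by limma) lost its call in 10 alternatives. Among them were those without hepatocyte-like replicate 2 or 3 (each 0.87). Abcg2 (1.14 ± 0.28) lost its call without hepatocyte-like replicate 1 (0.80). Abca1, which hands cholesterol to apolipoprotein A-I, read 8.44, 8.41 and 8.43 on hepatocyte-like arrays and 7.12 to 8.06 on stem cell arrays (0.80 ± 0.22, below the minimum difference).

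**Figure D5:**
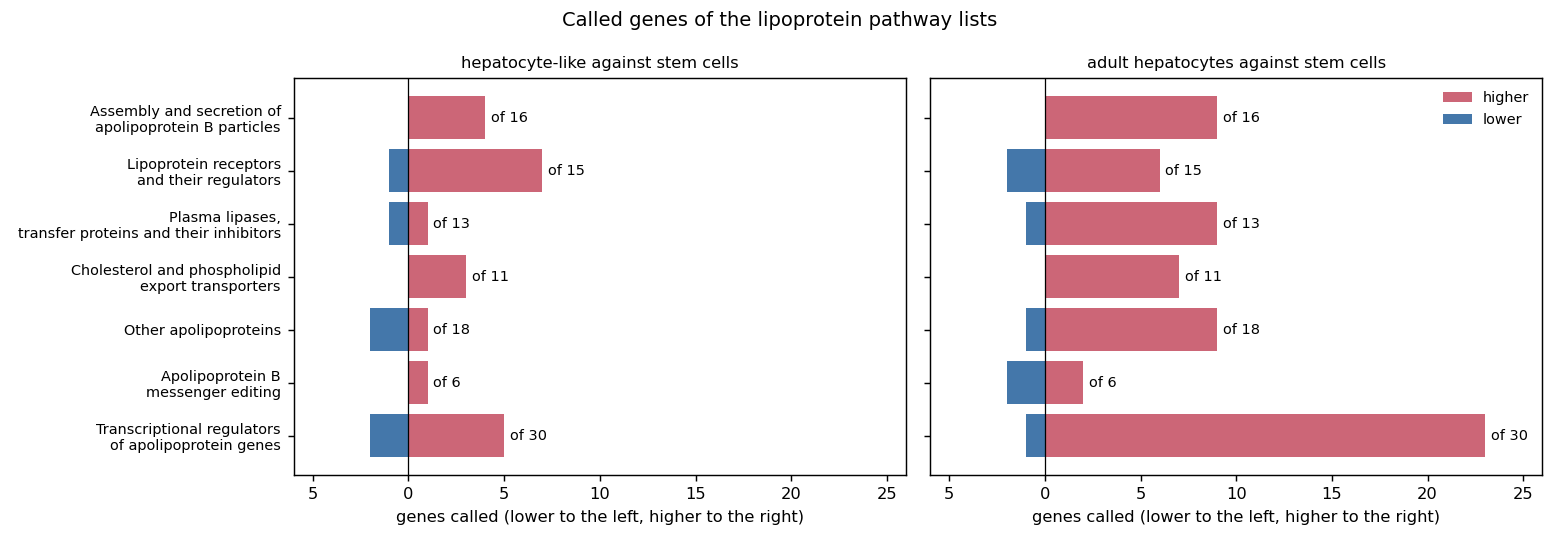
Number of genes called lower (bars to the left of 0) or higher (bars to the right) against stem cells in hepatocyte-like cells (left panel) and adult hepatocytes (right panel) for 7 gene lists around the apolipoproteins, with the number of genes measured beside each bar. Of the 30 regulators of apolipoprotein genes 5 are higher in hepatocyte-like cells and 23 in adult hepatocytes. The shares over all genes are 8.61% and 11.0%.

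Transcription factors known to act on apolipoprotein genes were largely raised in adult hepatocytes. Of 30 measured, 23 rose and 1 fell in adult hepatocytes against stem cells, including Prox1 (5.56), Cebpa (5.05), the bile acid receptor gene Nr1h4 (4.98) and Ppara (4.84). In hepatocyte-like against stem cells 5 rose and 2 fell. Hnf4a, the factor whose motifs are marked in the sequences above, read 10.18, 10.65 and 10.44 on adult arrays, 6.66, 7.13 and 6.12 on hepatocyte-like arrays and 6.0, 6.21, 5.96 and 5.78 on stem cell arrays. Replicates 1 and 2 were above each stem cell array and replicate 3, in which Apob was highest, was within their range. The difference of 0.65 ± 0.22 was below the minimum for a call (adjusted p = 0.0457), and against adult hepatocytes Hnf4a was lower by 3.79. Among those that rose were Pparg (2.11 ± 0.24), Foxa1 (1.67 ± 0.47, and 0.94 without replicate 2, no longer called), Nr2f2 (1.66 ± 0.29) and Prox1 (1.52 ± 0.32); the fifth, Cebpb (1.15), was not called without replicate 3 (0.80). Nr5a2, which serves the adult liver and also pluripotent cells, read 5.09, 4.92 and 5.58 on hepatocyte-like arrays against 8.97 to 9.52 on stem cell arrays and 9.61 to 9.64 on adult arrays. Its fall was 4.05 ± 0.19, and like Apoc1, Apoe and Apoc2 it was lowest in hepatocyte-like cells. The other factor that fell, Nr1d1 (-1.08), was not called without replicate 3 (-0.80) or after cyclic loess.

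The genes outside the family whose levels over the 10 arrays were most like those of each apolipoprotein were mostly genes with large adult differences. Apoh was nearest to the cytochrome gene Cyp2e1 and the C-reactive protein gene Crp, Apoa2 to the urate oxidase gene Uox, Apoa4 to the glucose transporter gene Slc2a2, and Apob to Asah2 (Pearson r = 0.994). For Apoc1 and Apoe the lists shared Cbs, the gene of cystathionine beta-synthase (r = 0.997 and 0.994), and Apoe was nearest to the aldehyde oxidase gene Aox3 (r = 0.994). These values describe 10 arrays in 3 separate groups, so that a difference between the groups alone gives a high r.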

How the data were processed

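Biotin-labelled total RNA of 10 mouse samples was put on Affymetrix arrays, per the labels. The values, a table of 41345 transcript clusters, are log2 levels used as the authors deposited them, with no further normalization. Per the submitters' processing notes, R 3.3.1, the package oligo 1.38.0, Transcriptome Analysis Console and RMA were used; their roles and the build of the probes' genome are not stated there. RMA as a method gives the arrays a common distribution and compresses differences of dim probes. The platform annotation, which can be old, gave a single gene symbol for 23521 clusters. Where several stood for a gene, the brightest on average represented it, for 22180 genes in all.

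The 3 comparisons were made in limma 3.58.1 (R 4.3.3; lmFit, eBayes, 2-sided) from a single model of 3 group means, with Benjamini-Hochberg adjustment over all genes and the call rule given in the report; rose and fell refer to calls. Precision is limited by the number of arrays. The script was tested on simulated data. The members, the 7 pathway lists and 6 cell type lists were chosen with earlier results of these data known. Named were the 10 genes, up to 4 called genes per list and comparison by size (for cell types also the brightest), called neighbours and, per member, the 2 genes with the highest r over the arrays, predicted models left out; others, such as Abca1, Abcg2, Nanog and genes whose call was lost, were chosen after their values were seen. Genes without a single-symbol cluster were not analysed here. Promoters and gene order came from RefSeq GRCm38.p6. Matplotlib 3.10.9 under Python 3.11.15 drew the figures. Alternatives were 3 other normalizations, a dim gene filter, the mean over or each of a gene's clusters, trended variance, array weights, 2 groups only, a replicate block, no minimum difference and each array left out.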

Additional observations from a re-analysis of the deposited data

Results flagged for a closer look

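Among 91 groups of 4 stem cell arrays examined for the genes named in the text, 2 held an array far from the other 3, and chance alone gives about 1 in 20. Neither was an apolipoprotein of the 10. Apobec1, the deaminase that edits the Apob message, read 7.08 in stem cell replicate 2 against 6.82 to 6.84 in the other 3. Cd68, a lysosomal marker of macrophages, read 9.17 in stem cell replicate 1 against 9.62 to 9.69 in the others.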

How the results depend on the processing

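Under each alternative run, 4 apolipoproteins were called in hepatocyte-like against stem cells (2 higher, 2 lower), and 10 in each comparison with adult hepatocytes. Some alternatives could hardly change these calls. Each of the genes had 1 cluster, so the alternatives on clusters left their levels unchanged. Leaving out an adult array left their differences between hepatocyte-like and stem cells unchanged. In hepatocyte-like against stem cells the difference of Apoa2 turned to -0.051 with array weights and to -0.34 without hepatocyte-like replicate 3; it ran from -0.34 to 0.45 over the arrays left out in turn and was called in none of them. With no minimum difference, 6390 genes passed the adjusted p in hepatocyte-like against stem cells (3540 with it), 9205 in adult hepatocytes against stem cells (5893) and 8003 between hepatocyte-like cells and adult hepatocytes (5106). Leaving out 1 array at a time gave 3349 to 3719, 5797 to 6010 and 4933 to 5272 calls in these comparisons. Cyclic loess moved the share of higher calls from 41.5% to 52.0% in adult hepatocytes against stem cells and from 60.4% to 50.5% between hepatocyte-like and adult cells. The adjusted p of Apom in hepatocyte-like against stem cells ran from 0.0319 to 0.26 and that of Apoh from 0.0618 to 0.516 over the alternatives.

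Samples with the same replicate number in different groups had r of deviations from -0.19 to 0.14, above 0.1 in 2 of 9 pairs. With different numbers r ran from -0.25 to 0.23, above 0.1 in 5 of 24 pairs. Deviations within a group of so few arrays depend on each other, so this check cannot decide whether the numbers pair the samples. With the replicate number as a block, 4, 10 and 10 apolipoproteins and 3518, 5926 and 5103 genes were called in the 3 comparisons.

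No detection calls were used, so Apoa5, Apoh and Apom in stem and hepatocyte-like cells, near the level of olfactory receptor genes, have little range in which to show a fall.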
